A study of Mus musculus with 3 samples.

Results

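The clustered histone genes are the mouse genes whose symbols start with Hist1h, Hist2h, Hist3h or Hist4h, and 67 of the 31053 genes in the deposited matrices carry such a symbol. By family, 6 encode the linker histone H1, 18 the core histone H2A, 18 H2B, 12 H3 and 13 H4. By position, 54 lie on chromosome 13, 10 on chromosome 3, 2 on chromosome 11 and 1 on chromosome 6. They were followed in single cells of the ear epidermis of C57BL/6N mice at 9 weeks of age, without any treatment. The 3 replicate libraries form 1 group, and nothing in the labels says whether they came from separate animals, so a p-value here speaks of the spread among these libraries, which may be technical. Epidermis was lifted off with dispase, cells were released from its basal side with trypsin and EDTA and frozen, and libraries were made with a droplet kit that counts the 5′ ends of transcripts as unique molecular identifiers (UMIs).

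Histones package DNA, and a cell that copies its genome needs new histones at the same time. Most clustered histone genes are transcribed in S phase and are known as replication-dependent; their mRNAs end in a conserved stem-loop instead of a poly(A) tail, are bound there by the protein Slbp and are degraded when DNA synthesis ends. Some members, among them Hist1h1c, Hist1h2bc and Hist2h2be, are known to give polyadenylated transcripts outside S phase too. In the epidermis, divisions take place mainly in the basal layer, and cells that leave it stop dividing, fill with keratins in the spinous layer and with loricrin in the granular layer. The kit primes on poly(A), and its part in the levels below was not tested.

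The stem-loop is shown first because it sorts the members by sequence. The pattern searched was the 16-base histone stem-loop, fixed at its conserved positions and free at the others. On the sense strand of the annotated transcripts (GENCODE M21) it was found in 46 of the 67 members, and in 0.621% of the 21901 protein-coding genes searched. The forms differ in the bases of the stem and of the 4-base loop, which is given in capitals. The first line is the form of 26 members, among them Hist1h2ap, Hist1h2ae, Hist1h1e, Hist1h3b and Hist2h2aa1, on chromosomes 13, 3 and 11. The second is that of 7 H4 genes on chromosomes 13 and 6. The third is that of 6 members on chromosome 13, Hist1h2bb, Hist1h3c and Hist1h3f among them. The fourth is that of the H4 genes Hist1h4i (chromosome 13) and Hist2h4 (chromosome 3).
26 members: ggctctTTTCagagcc
7 members: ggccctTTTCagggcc
6 members: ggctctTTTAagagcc
2 members: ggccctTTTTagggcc
The H2B genes Hist1h2bc and Hist2h2be had no match in their annotated transcripts, nor did the H1 genes Hist1h1b and Hist1h1a, whose annotated models span only 743 and 741 bases; no match says only that these letters are not in the annotated model. Where the pattern was found, the annotated transcript ran on past it by 3 bases (Hist1h2ap) to 4884 bases (Hist1h1d). The distance was 35 bases in Hist2h2aa1, 51 in Hist1h3b, 752 in Hist1h3d, 770 in Hist1h4d, 840 in Hist1h1c, 1153 in Hist1h1e, 1162 in Hist2h3c1 and 1643 in Hist3h2a.

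Promoters are shown for 3 members on chromosome 13 that the results set against each other: the H1 genes Hist1h1b and Hist1h1c and the H2B gene Hist1h2bb. The 150 bases before the start site come from the RefSeq promoter table (GRCm38.p6), in which 62 of the 67 members had an entry. Capitals mark matches, on either strand, to the CCAAT box, the octamer motif ATTTGCAT and the H1 box motif AAACACA. The TATA box, in the form TATAAA, was searched and marked on the printed strand only.
Hist1h1b, chr13:21780626-21780775, minus strand: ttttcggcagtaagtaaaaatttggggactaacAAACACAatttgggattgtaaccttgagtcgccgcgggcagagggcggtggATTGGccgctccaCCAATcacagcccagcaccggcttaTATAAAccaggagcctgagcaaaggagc
Hist1h1c, chr13:23738657-23738806, plus strand: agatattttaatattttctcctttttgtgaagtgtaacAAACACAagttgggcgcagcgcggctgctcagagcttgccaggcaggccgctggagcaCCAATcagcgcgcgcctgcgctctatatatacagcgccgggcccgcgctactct
Hist1h2bb, chr13:23746584-23746733, plus strand: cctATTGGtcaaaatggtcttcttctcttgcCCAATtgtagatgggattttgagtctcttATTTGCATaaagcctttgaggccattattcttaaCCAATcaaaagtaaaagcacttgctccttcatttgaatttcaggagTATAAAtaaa
In the whole 300-base entries, CCAAT was found in 53 of 62 members (85.5%) against 37.4% of all 32851 promoters, and in only 3 of 12 H4 genes. TATAAA was found in 48.4% of members and 8.32% of all promoters. ATTTGCAT, the octamer motif of H2B promoters, was found in 7 of 18 H2A and 6 of 16 H2B genes and in no H1, H3 or H4 gene, against 1.74% of all promoters; H2A and H2B genes that lie head to head share part of their windows. AAACACA, known from H1 promoters, was found in 5 of 6 H1 genes and 7.18% of all promoters.

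Copies of these genes are nearly alike, which limits how far a count can be given to 1 gene. Of the 90-base stretches of its transcripts, 100% were found in no other gene for Hist1h1b, Hist1h1a and Hist2h2be, 94.3% for Hist1h1c, 73.9% for Hist1h2bc and 68.1% for Hist1h2ae. For Hist1h2ap the share was 7.63%, with Hist1h2ao as the gene that shared most, and for Hist1h2br 13.1%, shared with Hist1h2bq. Hist2h2aa1 and Hist2h3c1 had no such stretch (0%) with both strands counted; Gm20634 overlaps both on the same strand, and Gm20633 overlaps Hist2h2aa1 on the other. Hist1h1e overlaps Hist1h2be on the same strand. Over all barcodes Hist1h2ao had 3 UMIs against 41504 for Hist1h2ap, and Hist1h2bq had 0 against 320 for Hist1h2br. Levels given under these names therefore may hold UMIs of the named copies, or lack UMIs from shared stretches. A low or 0 count of a gene with few stretches of its own can likewise be too low. The sources used here do not give how such reads were counted.

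A barcode entered if it had 500 or more genes and no more than 10% of its UMIs from mitochondrial genes, which held for 5340 of 6078, and any 2 libraries shared 3 to 9 barcodes. They were classed by keratin and loricrin shares: basal cells had at least 0.5% of their UMIs from Krt5 and Krt14 and under 0.5% from Krt1 and Krt10, spinous cells at least 0.5% from Krt1 and Krt10 and under 1% from Lor, and granular cells at least 1% from Lor. Basal cells with 2 or more UMIs of Pclaf, a partner of the replication clamp, and Tk1, thymidine kinase, are called S-marked, and the others unmarked. This gave 406 S-marked basal cells (89 to 219 per library), 1981 unmarked basal, 2297 spinous and 425 granular cells (57 to 205 per library); 231 cells fell in no class. The S-marked share of basal cells was 20.9%, 9.40% and 22.6% in replicates 1 to 3. Median UMIs per cell, by library, were 12651 to 17455 in S-marked basal, 7140 to 11016 in unmarked basal, 13349 to 20489 in spinous and 18540 to 28482 in granular cells. Levels are given in CPM, a gene's UMIs per 1000000 UMIs of all genes in the same library and class. The summed level of 6 basal markers, Krt5 and Krt14 of the rule among them, was 18708 to 23916 CPM in S-marked basal, 21219 to 25210 in unmarked basal, 1159 to 1742 in spinous and 307 to 439 in granular cells. The sum of 6 follicle markers was 982 to 1187 CPM in S-marked and 1384 to 1601 in unmarked basal cells. It was 46.3 to 86.9 in spinous and 24.6 to 43.3 in granular cells, and its part in the results was not tested. The sum of 4 T-cell markers was 0 to 1.36 CPM in S-marked cells, where Cd3e and Trdc were at 0, and 0.499 to 5.14 in unmarked basal cells. The sum of 4 Langerhans markers was 6.39 to 15.6 CPM in S-marked against 14.7 to 26.5 in unmarked basal cells. The sum of 4 fibroblast markers was 0.680 to 56.3 CPM in S-marked and 0.663 to 2.99 in unmarked basal cells; its part in the results was not tested.

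S-marked basal cells held far more clustered histone RNA than any other class. Summed over the 67 members, the level was 8510, 9217 and 7709 CPM in the S-marked basal cells of replicates 1 to 3, against 259, 282 and 239 in unmarked basal cells. It was 374, 421 and 345 CPM in spinous cells and 503, 378 and 457 in granular cells. The S-marked libraries lay far above all others, and the ranges of spinous and granular cells overlapped. Within the S-marked cells Hist1h2ap, an H2A gene, gave 76.4% ± 0.478 of all member UMIs (SD, n = 3 libraries), and 4 members (Hist1h2ap, Hist1h1b, Hist1h1e and Hist1h2ae) gave 90.6%. Without Hist1h2ap the sum was 2004 ± 218 CPM in S-marked and 204 ± 16.1 in unmarked basal cells (SD, n = 3).

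The make-up of the sum also differed between classes. H2A genes gave 81.7% ± 0.746 of member UMIs in S-marked and 50.1% ± 0.589 in unmarked basal cells (SD, n = 3). H1 genes gave 12.8% ± 1.08 in S-marked and 26.3% ± 0.375 in unmarked basal cells. H2B genes gave 2.23% ± 0.326 in S-marked and 14.4% ± 1.41 in unmarked basal cells. H3 genes gave 1.77% ± 0.564 and H4 genes 1.5% ± 0.0995 of member UMIs in S-marked cells. In the other classes Hist2h2aa1 led, with 25.1% of the sum in unmarked basal, 36.5% in spinous and 25.2% in granular cells. A UMI of the 5′ end does not scale with transcript length, but capture can differ between genes, so these shares describe the libraries.

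**Figure D1:**
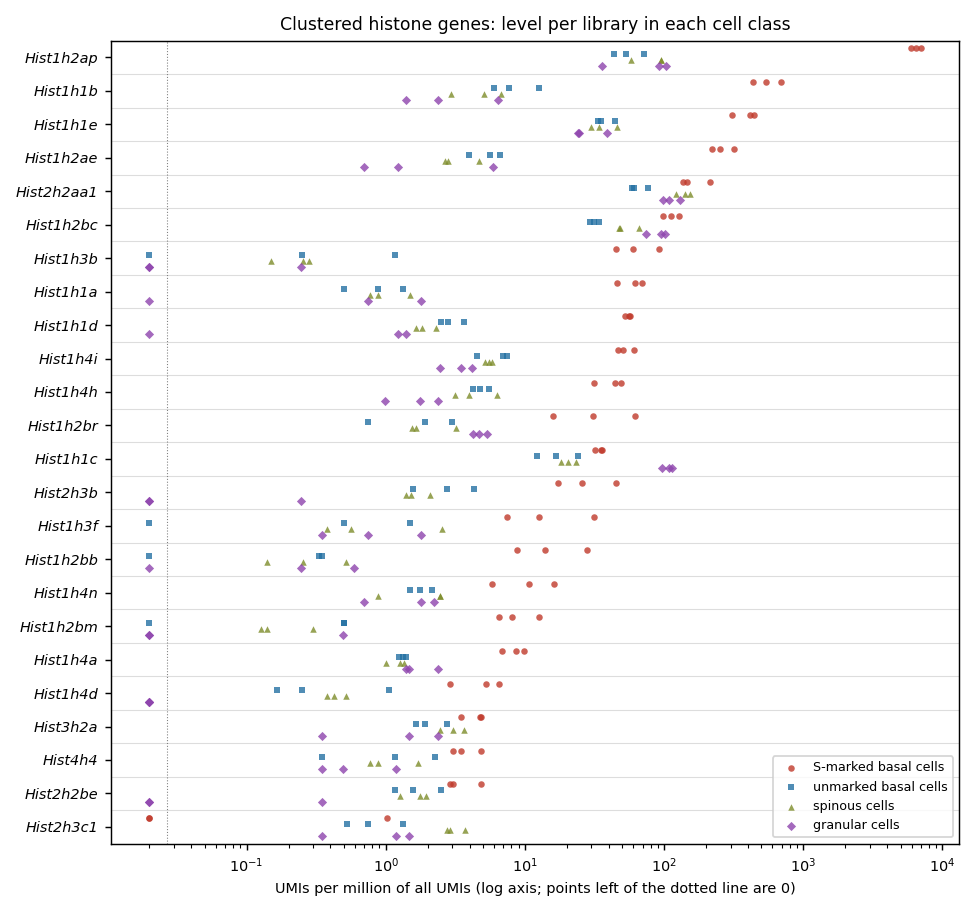
Level of each named member in CPM (log axis), 1 point per library, in S-marked basal, unmarked basal, spinous and granular cells; points left of the dotted line are 0. Hist1h2ap reached 5923 to 6994 in S-marked and 43.7 to 71.3 in unmarked basal cells, while Hist1h1c was highest in granular cells, at 96.8 to 114.5.

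Of the 67 members, 62 had a UMI in some cell, 5 (Hist1h2bl, Hist1h3h, Hist1h4k, Hist1h2bq and Hist1h2ba) had none, and 27 had under 10 UMIs over the 4 classes. The share of transcript stretches found in no other gene was 4.67% for Hist1h2bq, 6.83% for Hist1h3h, 33.2% for Hist1h2bl and 34.1% for Hist1h4k. It was 70.2% for Hist1h2ba. Where few stretches are a gene's own, a count of 0 can be too low and does not show that its RNA was absent. The low-count filter kept 29 members, which a gene could enter through the class where it is high, and these were tested among 10948 genes with UMI counts summed per library and class (edgeR, library as a block, adjusted over all genes). In S-marked against unmarked basal cells 26 of the 29 were called, all higher; over all genes 16.4% were called higher. Their median log2 fold change was 3.37, beside -0.09 over all genes tested. By family, 5 of 5 H1, 4 of 5 H2A, 5 of 6 H2B, 6 of 7 H3 and 6 of 6 H4 genes were called. The mark itself came from Pclaf and Tk1, and all 13 genes of an S-phase list without them (Mcm2 to Mcm7, Pcna, Rrm1, Rrm2 and others) rose too, with a median log2 fold change of 2.53.

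Among the linker histones, Hist1h1b had 433, 687 and 537 CPM in S-marked basal cells, against 5.99, 12.6 and 7.70 in unmarked basal cells. The log2 fold change was 5.90 ± 0.17 (SE; adjusted p 3.5e-17), and the groups did not overlap. Hist1h1a rose nearly as much, with 62.2, 69.5 and 45.9 CPM in S-marked against 0.499, 1.33 and 0.875 in unmarked basal cells (log2 5.86). Hist1h1d rose by 4.13 and Hist1h1e by 3.28 on the log2 scale. The smallest change of the family was that of Hist1h1c, with 35.4, 35.7 and 31.6 CPM in S-marked against 24.2, 12.3 and 16.8 in unmarked basal cells. Its log2 fold change was 0.89 ± 0.20 (SE; adjusted p 0.0013), the smallest of all called members.

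The H2A family held the member with the highest level. Hist1h2ap had 6508, 6994 and 5923 CPM in S-marked basal cells, against 43.7, 71.3 and 53.2 in unmarked basal cells, a log2 fold change of 6.76 ± 0.25 (SE; adjusted p 1.4e-15). Every S-marked library lay far above every unmarked one. Hist1h2ae rose by 5.49 on the log2 scale. Hist2h2aa1 had 146, 214 and 138 CPM in S-marked against 76.1, 60.8 and 58.8 in unmarked basal cells, a log2 fold change of 1.25 ± 0.12. Its levels split by genes of G2 and mitosis are given below. Hist3h2a was not called, with 3.49, 4.83 and 4.76 CPM in S-marked against 2.74, 1.66 and 1.93 in unmarked basal cells (log2 0.94 ± 0.42 SE; adjusted p 0.088).

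In the H2B family, Hist1h2bb changed most, with 13.9, 28.0 and 8.84 CPM in S-marked and 0, 0.332 and 0.350 in unmarked basal cells (79 and 4 UMIs in all; log2 5.86 ± 0.49 SE). Hist1h2bc had 128, 112 and 98.9 CPM in S-marked against 33.9, 29.5 and 31.5 in unmarked basal cells, a log2 fold change of 1.73 ± 0.14 (SE; adjusted p 8.5e-10). Its groups did not overlap, though its change was the smallest of the called H2B genes. Its levels split by genes of G2 and mitosis are given below. Hist2h2be was not called, with 2.90, 4.83 and 3.06 CPM in S-marked against 2.49, 1.16 and 1.58 in unmarked basal cells (log2 0.98 ± 0.48 SE; adjusted p 0.12). It was close to Hist1h1c in fold change but stood on 19 and 26 UMIs.

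The H3 genes ran from the largest change of all tested members to the only value below 0. Hist1h3b had 92.4, 45.4 and 59.5 CPM in S-marked and 0.249, 1.16 and 0 in unmarked basal cells, a log2 fold change of 6.82 ± 0.34 (SE; adjusted p 1.9e-13). Hist1h3c, named after its values were seen, had 41 UMIs in S-marked and 1 in unmarked basal cells, a ratio of levels of 113 with a 95% counting interval of 19.2 to 4585. Hist2h3c1 had 3 UMIs in S-marked and 14 in unmarked basal cells, a ratio of 0.592 with an interval of 0.109 to 2.12, and was not called (log2 -0.85; adjusted p 0.52). Intervals and limits from counts cover counting error only.

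The H4 genes had log2 fold changes from 1.67 (Hist4h4) to 3.18 (Hist1h4d) and a median of 2.77. Hist1h4i, the H4 gene with the highest level, had 46.5, 60.8 and 50.3 CPM in S-marked against 6.99, 7.46 and 4.55 in unmarked basal cells (log2 3.00 ± 0.17 SE). Hist1h4h followed with 41.6 ± 9.26 CPM in S-marked and 4.81 ± 0.620 in unmarked basal cells (SD, n = 3). Of the 26 called members, 25 were called under every alternative that tested them. The exception was Hist4h4, with a log2 fold change of 1.46 without replicate 2 and 1.25 without replicate 3, neither called, and 1.53 without the replicate block, also not called (adjusted p from 0.0044 to 0.209 over the alternatives).

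**Figure D2:**
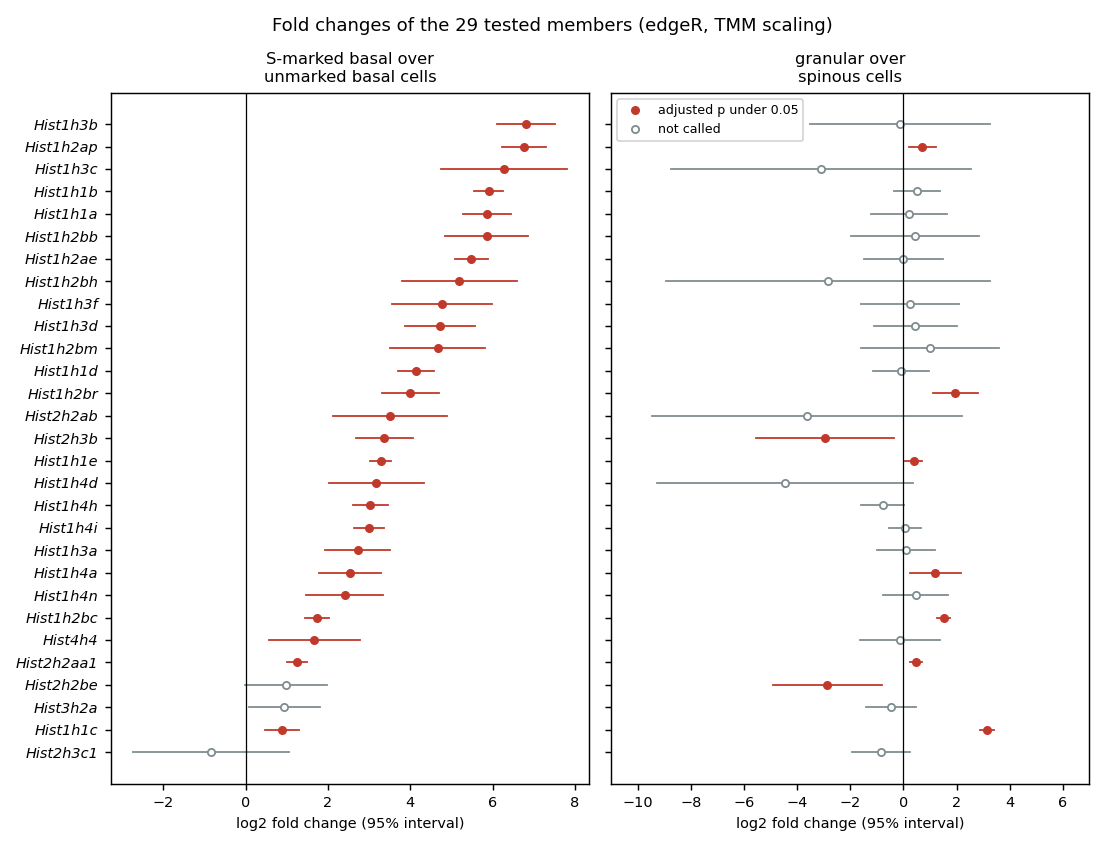
Log2 fold change with its 95% interval for each of the 29 tested members, in S-marked over unmarked basal cells (left) and granular over spinous cells (right); filled points passed an adjusted p of 0.05. Hist1h3b (6.82) and Hist1h2ap (6.76) lead on the left and Hist1h1c (3.15) on the right.

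Neighbours that lie head to head, with start sites close together, could differ widely in level, as 3 of 13 such pairs show, chosen after their values were seen. Hist1h2ap had 6475 and Hist1h2br 36.2 CPM in S-marked basal cells, at a distance of 235 bases. Hist1h2ae had 264 CPM and Hist1h2bg, 175 bases away, 0.307. The order was turned round between Hist1h2ac, with 0.534 CPM, and Hist1h2bc, with 113.1, at 250 bases. These are differences in counted level between genes, with no test. The share of transcript stretches found in no other gene was 7.63% for Hist1h2ap, 13.1% for Hist1h2br, 68.1% for Hist1h2ae and 54.1% for Hist1h2bg. It was 90.7% for Hist1h2ac and 73.9% for Hist1h2bc. Levels of genes with few such stretches can be too low or hold UMIs of copies. The part of shared stretches and of poly(A) capture in these differences was not tested.

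Within the S-marked cells the level varied widely from cell to cell. The median cell had 1336, 4121 and 785 member CPM in replicates 1 to 3, and 40.8%, 47.2% and 33.3% of the cells lay above 5000. A further 46.9%, 38.2% and 55.3% lay below 1000. The level went with the strength of the mark: basal cells with 0 UMIs of Pclaf and Tk1 averaged 242 ± 6.30 member CPM, those with 2 averaged 665 ± 488, those with 5 to 8 averaged 1694 ± 662, and those with 17 or more 19500 ± 3392 (SD, n = 3 libraries). Depth moved with the mark, the median UMIs per cell being 7162 to 10769 by library at 0 UMIs and 15648.5 to 22507 at 17 or more; its part was not tested.

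The S-marked cells were also split by the sum of 6 genes of G2 and mitosis (Ccnb1, Ccnb2, Cdc20, Plk1, Aurka and Cenpe). The 119 S-marked cells with under 2 UMIs of these genes held 598, 1827 and 1398 member CPM in replicates 1 to 3. The 287 with 2 or more held 10940, 10682 and 10021. The groups differed in more than phase. By library, Pclaf and Tk1 summed to 269 to 467 CPM without and 817 to 902 with the G2/M genes. Median UMIs per cell were 8836 to 14448 without and 13498 to 19025 with them. The S-phase list overlapped, at 831 to 1224 and 1029 to 1203 CPM. The part of mark strength and depth was not tested. Of 25 members tested in this split, 19 were called, all lower in cells without the G2/M genes. Over all genes 6.57% were called lower and 3.19% higher. A member could enter this fit too through the class where it is high, which favours a call in that direction. Hist1h2bm, for one, stood on 1 UMI without and 45 with the G2/M genes, and Hist1h3f on 1 and 88. Hist1h2ap had 279, 1372 and 988 CPM without and 8422, 8108 and 7730 with the G2/M genes, a log2 fold change of -3.31 ± 0.38 (SE; adjusted p 1.7e-07). Hist1h2ae fell by 3.74, Hist1h2br by 4.53, Hist1h3f by 4.57 and Hist1h1b by 2.92 on the log2 scale. Hist1h2bb had 0 UMIs in the cells without and 79 in those with the G2/M genes, which is at least 8.29-fold lower by the limit of 3 counts over the group, and for Hist1h4d (0 and 31 UMIs) at least 3.25-fold lower.

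Hist1h2bc and Hist1h1c, whose changes in S-marked cells were small, were both lower in mean level in cells without the G2/M genes, and the difference between them was not tested. Hist1h2bc had 19.8, 17.5 and 24.1 CPM in cells without and 161.7, 130.7 and 126.3 in cells with the G2/M genes (log2 -2.69 ± 0.28 SE; adjusted p 1.6e-08). Unmarked basal cells had 28.7, 23.8 and 29.9 CPM of it without and 127.2, 136.9 and 74.1 with the G2/M genes. Hist2h2aa1 had 64.3, 46.7 and 33.0 CPM in S-marked cells without and 170.8, 247.6 and 176.0 with them. In unmarked basal cells it had 77.4, 61.8 and 59.1 without and 51.8, 42.4 and 49.4 with them. Without the G2/M genes both were lower in S-marked than in unmarked cells of each library, which was not tested. Hist1h2ap went the other way. Hist1h1c was not called, with 14.8, 40.9 and 15.2 CPM without and 41.8, 34.7 and 37.6 with the G2/M genes (log2 -1.05 ± 0.37 SE; adjusted p 0.072), and its groups overlapped. It was called without replicate 2, at a log2 fold change of -1.35, without a low-count filter (-1.04) and with cells of 3000 or more UMIs (-1.15; adjusted p from 0.021 to 0.468 over the alternatives). Calls of Hist1h2bm, Hist1h3f, Hist1h4d and Hist1h4n also depended on single libraries. Without replicate 1 none of them was called, with log2 values of -3.09 for Hist1h2bm, -3.15 for Hist1h3f and -2.97 for Hist1h4n; Hist1h2bm was not called without replicate 2 (-3.35) or 3 either, and Hist1h4n was not called without replicate 3 (-2.26). For Hist1h4d, at 0 UMIs in the cells without the G2/M genes, a fitted value has no meaning as a fold.

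**Figure D3:**
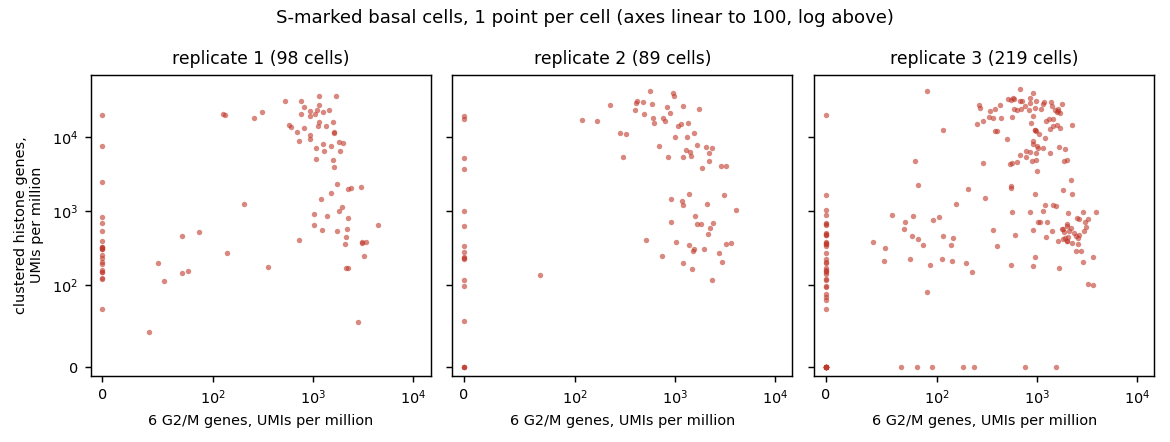
Summed CPM of the clustered histone genes against those of 6 G2/M genes in each S-marked basal cell (axes linear to 100 and log above), by replicate. Of 117 cells above 10000, 100 lie between 300 and 2400 on the horizontal axis, and 98 of the 112 cells at 100 or less and 29 of the 34 above 2400 lie under 1000.

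Grouping the same cells by their G2/M level, with limits chosen after seeing the data, gave the highest levels at intermediate G2/M levels. Cells with 100 or fewer G2/M CPM held 991 ± 493 member CPM (SD, n = 3 libraries; 112 cells), and those between 100 and 300 held 12682 ± 5878 (27 cells). The level was 19042 ± 3516 between 300 and 600 (38 cells), 14980 ± 1760 between 600 and 1200 (86 cells) and 6838 ± 1110 between 1200 and 2400 (109 cells). Above 2400 it was 612 ± 300.5 (34 cells). The thinnest groups held 4 cells in a library, and both axes share the cells' total UMIs, so these values describe the cells and carry no test.

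Named members are given here between 300 and 600 G2/M CPM, where the summed level was highest, and above 2400. Hist1h2ap had 14412 CPM between 300 and 600 G2/M CPM and 270.4 above 2400, with 162, 521 and 128 in the 3 libraries. Hist1h1b had 1373 and 56.9 in the same groups. Hist1h1c had 64.5 ± 52.1 and 19.6 ± 9.47, beside 21.8 ± 13.2 in the lowest group, and Hist2h2aa1 526 ± 504 and 19.6 ± 9.47. Between 300 and 600, Hist1h1c had 17.2, 120.2 and 56.0 CPM in the 3 libraries, on 1, 17 and 18 UMIs. Above 2400 it stood on 2, 1 and 8 UMIs. Hist1h2bc had 99.0 ± 56.9 and 96.6 ± 19.4 (SD, n = 3); above 2400 the 3 libraries had 76.1, 114.7 and 99.0, all above the 12.3 to 37.3 of the lowest group. Slbp, whose protein binds the stem-loop, had 297 ± 94.4 between 300 and 600 and 49.9 ± 34.3 above 2400. Mki67 and Top2a, known from late phases of the cycle, stayed high above 2400, at 636 and 1268 CPM.

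**Figure D4:**
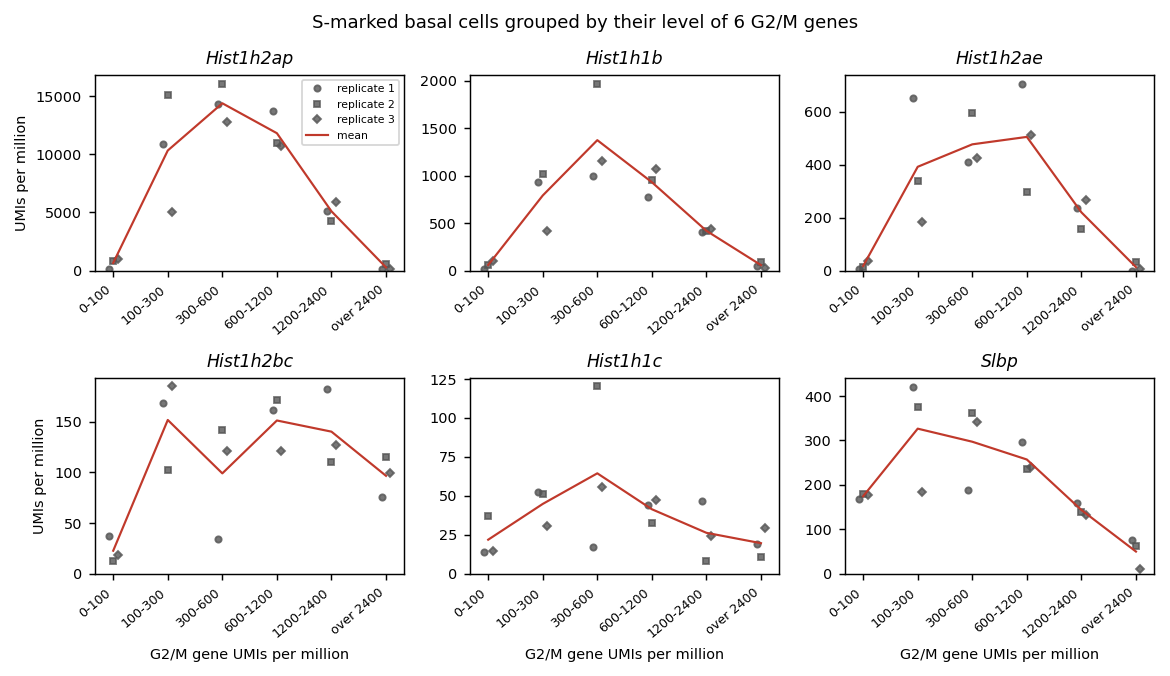
CPM of 5 members and of Slbp in S-marked basal cells grouped by their level of 6 G2/M genes, 1 point per library with the mean as a line. Hist1h2ap averaged 652 in the first and 270.4 in the last group, against 14412 in the third, while Hist1h2bc averaged 96.6 in the last group.

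Cells with the S mark were found in the spinous class too, 7, 14 and 21 per library. Replicate 1 was left out of the fit because its 7 cells were under the minimum of 10. S-marked spinous cells held 2370, 3613 and 834 member CPM, against 319, 349 and 329 in unmarked spinous cells. Median UMIs per cell were 33370, 20918 and 17478 in S-marked and 20379, 13256.5 and 14801 in unmarked spinous cells. Pclaf and Tk1 summed to 189 to 339 CPM in S-marked spinous cells, beside 737 to 759 in S-marked basal cells. The part of depth and mark strength was not tested. Of the 25 members tested, 11 were called, all higher in S-marked spinous cells; 5.55% of all genes were called higher and 6.67% lower, with 899 genes higher and 93 lower in place of 574 and 690 when total UMIs set the scale (median log2 of all genes 0.20 in place of -0.15). Hist1h2ap had 2288 and 510 CPM in S-marked spinous cells of replicates 2 and 3, against 46.6, 45.6 and 42.9 in the unmarked spinous cells of replicates 1 to 3 (log2 4.38 ± 0.44 SE; adjusted p 9.8e-09). Hist1h1b had 217 and 22.5 CPM in S-marked spinous cells of replicates 2 and 3, against 0.777, 2.06 and 2.33 in unmarked spinous cells (log2 5.29). Hist1h3b (log2 5.63) stood on 4 UMIs in S-marked and 2 in unmarked spinous cells and was not called without replicate 2 (4.95). Without replicate 2, only the 21 S-marked spinous cells of replicate 3 gave a profile, which is assumed to vary like the profiles of the other classes; 2 members were then called higher and 1 (Hist2h2aa1) lower, calls that rest on 1 library.

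The S-marked effect was then set against that in basal cells. The difference was called for 1 of 25 members, where 2.87% of all genes were called lower and 2.60% higher: Hist2h2aa1, with a difference of -1.12 ± 0.34 on the log2 scale (SE; adjusted p 0.048). Its level was 247 and 65.2 CPM in S-marked spinous cells of replicates 2 and 3 and 142, 151 and 123 in unmarked spinous cells, so that the marked cells lay on either side of the unmarked ones. The call was lost with total UMIs, with DESeq2, with either other form of the mark, without the block, with a mitochondrial limit of 5%, and without replicate 1 or 3; without replicate 2, 3 members were called lower. Without replicate 2 or 3 the S-marked spinous cells are 1 library, assumed to vary like the other classes. At an unadjusted p of 0.05, 2 members passed.

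Outside the S mark, a few members changed between the layers of the epidermis, and the scaling decides for some of them in which direction. The median mitochondrial share of UMIs per cell moved with the layers, at 4.63 to 4.96% by library in unmarked basal, 3.58 to 3.92% in spinous and 1.78 to 1.84% in granular cells. The sum of 4 Langerhans markers was 14.7 to 26.5 CPM in unmarked basal, 15.5 to 23.8 in spinous and 3.56 to 100.2 in granular cells. Their part in the layer results was not tested. In spinous against unmarked basal cells, 7 of 29 tested members were called, all higher, where 35.1% of all genes were called higher. With total UMIs in place of TMM scaling, the median log2 fold change of all genes moved to -0.33 and the genes called to 2501 higher and 5544 lower, beside 3848 and 3645 with TMM. The median of the tested members was 0.34 with TMM. Hist2h2aa1 had 142, 154 and 121 CPM in spinous against 76.1, 60.8 and 58.8 in unmarked basal cells, without overlap (log2 1.43 ± 0.10 SE; adjusted p 4.0e-11). Hist1h2bc had 48.4, 47.5 and 66.4 CPM in spinous against 33.9, 29.5 and 31.5 in unmarked basal cells, also without overlap (log2 1.11 ± 0.12 SE). Hist2h3c1 (log2 2.12), Hist3h2a (0.89), Hist1h2ap (0.85), Hist1h1c (0.61) and Hist1h1e (0.28) were the others. Fewer were called without replicate 3 (4 members), and Hist3h2a was not called there (log2 0.69); Hist1h1e was called neither there (0.29) nor without replicate 2 (0.25), and with total UMIs it stood at -0.043. With total UMIs 4 members were called higher (Hist2h2aa1, Hist2h3c1, Hist1h2ap and Hist1h2bc) and Hist1h1b lower.

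The spinous class held the 42 S-marked cells, and the unmarked basal class held 96 cells with 2 or more G2/M UMIs. With both left out, a comparison added after seeing the data, 3 of 25 members were called higher, Hist2h2aa1 (log2 1.38), Hist1h2bc (1.29) and Hist1h1c (0.75), where 33.6% of all genes were called higher and 32.7% lower. Hist1h2ap had 46.6, 45.6 and 42.9 CPM in unmarked spinous cells, against 37.1, 50.0 and 44.6 in unmarked basal cells without G2/M genes, and was not called (log2 0.35 ± 0.38 SE). Hist1h1b was called lower, with 0.777, 2.06 and 2.33 CPM in unmarked spinous against 5.53, 9.26 and 7.44 in unmarked basal cells without G2/M genes (log2 -1.72 ± 0.44 SE; adjusted p 0.0011). Unmarked cells can still hold 1 UMI of the mark. Pclaf and Tk1 summed to 4.40, 3.81 and 4.72 CPM in these spinous and 9.75, 7.69 and 15.8 in these basal cells. The S-phase list stood at 79.8, 79.9 and 66.2 CPM in the spinous and 171, 179 and 241 in the basal cells. Its part was not tested.

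Hist1h1c had the largest of the called rises in granular over spinous cells with TMM and with total UMIs. It had 96.8, 114.5 and 108.4 CPM in granular cells, against 18.2, 20.5 and 23.3 in spinous cells, without overlap (log2 3.15 ± 0.13 SE; adjusted p 1.4e-15); with total UMIs, the scale of these levels, its log2 fold change was 2.36. Hist1h2bc had 94.99, 73.6 and 101.5 CPM in granular against 48.4, 47.5 and 66.4 in spinous cells (log2 1.52 ± 0.12 SE, adjusted p 8.4e-11; 0.72 with total UMIs). Hist1h2br had 5.34, 4.20 and 4.68 CPM in granular against 1.64, 3.20 and 1.55 in spinous cells (log2 1.95 ± 0.41 SE; 1.17 with total UMIs). Both were without overlap. Hist1h1c averaged 106.6 ± 9.03 CPM in granular cells, beside 34.3 ± 2.29 in S-marked basal cells (SD, n = 3).

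In all, 9 of 29 members were called in granular over spinous cells, 7 higher (31.9% of all genes) and 2 lower (39.3%). The median log2 fold change of all genes was -0.23 with TMM scaling (3493 higher, 4307 lower) and -1.02 with total UMIs (1992 higher, 7076 lower). With total UMIs 3 members were called higher (Hist1h1c, Hist1h2bc and Hist1h2br) and 9 lower. Hist2h2aa1, with 129, 109 and 98.6 CPM in granular against 142, 154 and 121 in spinous cells, was called higher with TMM scaling (log2 0.47) and lower with total UMIs (-0.32). Hist1h1e stood at 0.38 with TMM, where it was not called without replicate 1 (0.13) or 3 (0.36), and at -0.41 with total UMIs, and Hist1h2ap at 0.71 with TMM and -0.082 with total UMIs. Without replicate 3, 4 members were called higher, and Hist1h2ap was at 0.16 and not called. Hist1h4a (log2 1.2) was called in no fit that left out a replicate, with 0.96, 1.40 and 1.26 without replicates 1, 2 and 3.

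The members called lower in granular cells stood on few UMIs. Hist2h2be had 0, 0.350 and 0 CPM in granular against 1.77, 1.94 and 1.27 in spinous cells, or 1 against 58 UMIs. The ratio of pooled levels was 0.0713, with a 95% counting interval of 0.00178 to 0.413. Hist2h3b had 1 against 60 UMIs (ratio 0.0689, interval 0.00172 to 0.399), and Hist2h4, not tested and named after its values were seen, 1 against 59. Hist2h2be was not called without replicate 1 (log2 -2.53), nor Hist2h3b without replicate 1 (-2.69) or 2 (-2.17).

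**Figure D5:**
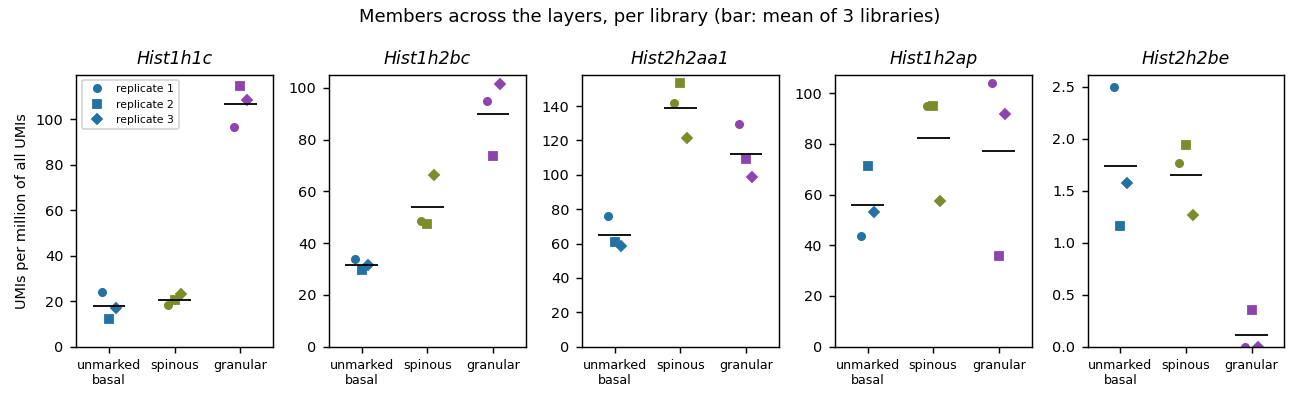
CPM of 5 members in unmarked basal, spinous and granular cells, 1 point per library with the mean as a bar. Hist1h1c lay at 96.8 to 114.5 in granular cells, Hist2h2aa1 lay at 121 to 154 in spinous cells, overlapping granular cells, and Hist2h2be had 1 UMI in all granular cells.

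Depth per cell differs between classes, so shares of cells with a member UMI were compared after thinning each cell to 2000 UMIs, which left out 8 S-marked basal, 140 unmarked basal, 56 spinous and 13 granular cells. The share was 75.9% ± 6.56 in S-marked and 35.7% ± 2.43 in unmarked basal cells (SD, n = 3). It was 43.2% ± 2.79 in spinous and 53.4% ± 1.75 in granular cells. Unthinned, the shares were 91.3 to 100% in S-marked basal, 69.3 to 78.7% in unmarked basal, 87.7 to 90.3% in spinous and 91.4 to 96.5% in granular cells. For Hist1h2ap the thinned share was 58.3% ± 5.32 in S-marked and 8.43% ± 0.999 in unmarked basal cells, and for Hist1h1c 17.7% ± 1.82 in granular and 4.61% ± 0.232 in spinous cells. RNA free in the suspension can give such UMIs to any cell, and no class here should lack all members, so its share was not measured. Among unmarked basal cells, those under 2000 UMIs held 660, 2099 and 1217 member CPM, against 238, 233 and 236 in those between 5000 and 10000. The same cells under 2000 UMIs had 517, 394 and 470 CPM of the 6 G2/M genes, against 30.8, 40.7 and 36.6. Their S-phase list stood at 373, 592 and 553 CPM, against 175, 168 and 224. The S mark is a fixed count at any depth, and the part of depth and of free RNA was not tested.

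Genes that act on histone mRNA and protein were read beside the members. Of 12 tested genes of histone mRNA making, 6 were higher and 1 lower in S-marked than in unmarked basal cells, with a median log2 fold change of 0.38, where 16.4% of all genes were called higher and 17.6% lower. Slbp had 208, 202 and 185 CPM in S-marked against 49.4, 48.6 and 56.7 in unmarked basal cells (log2 1.86), Eri1, a nuclease of the histone mRNA end, rose by 1.2, and Lsm10, a part of the U7 particle that cuts the end, fell by 0.84. Of 20 histone chaperones, 15 were higher and none lower (median 1.08), led by Asf1b (log2 5.12), with Chaf1b (2.52) and Chaf1a (2.23) of the chromatin assembly complex. Of 11 variant histone genes outside the clusters, 8 were higher and none lower (median 0.89). Cenpa, the histone of centromeres, and H2afx, known from DNA repair, led with 4.13 and 4.12. H2afz had 3228, 3483 and 2858 CPM in S-marked against 480, 536 and 514 in unmarked basal cells (log2 2.58).

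The same lists were read in the layers, where a large share of all genes was called. In spinous against unmarked basal cells, 4 chaperones were higher and 13 lower with TMM scaling (median -0.51), and 2 higher and 16 lower with total UMIs; over all genes 35.1% were called higher and 33.3% lower with TMM. Slbp was lower, with 26.5, 26.0 and 25.8 CPM in spinous against 49.4, 48.6 and 56.7 in unmarked basal cells (log2 -0.66). H2afy2 (-3.66), Cenpa (-2.14) and H2afj (1.47), an H2A variant, changed most among the variant histones, of which 4 were higher and 6 lower with TMM and 3 higher and 7 lower with total UMIs. In granular against spinous cells, 7 variant histones were higher and 2 lower with TMM scaling (31.9% and 39.3% of all genes), but 1 higher and 5 lower with total UMIs. H3f3a, a source of the replication-independent H3 variant, was higher with either scaling (log2 1.36 with TMM, 0.58 with total UMIs), as were Slbp (1.10 and 0.31) and the acetyltransferase Hat1 (1.57 and 0.78), while H1fx was lower (-2.61 and -3.36). In the split by G2/M genes, 7 variant histones were lower in S-marked cells without these genes, where 6.57% of all genes were called lower, led by Cenpa (-5.71) and H2afx (-3.22).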

How the data were processed

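Single cells of mouse ear epidermis were measured in 3 libraries of 1 group. The deposited matrices hold whole UMI counts per gene and barcode, made by the authors with Cell Ranger 3.1.0 on the mm10 build, per the submitters' processing notes; the annotation version is not stated there. No deposited column of per-sample values was left unused (0). The members and the gene lists were chosen with earlier results of these data known.

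Counts were summed per library and class (profiles of at least 10 cells) with Python 3.11.15 and tested with edgeR 4.0.16 in R 4.3.3: filterByExpr, TMM scaling, quasi-likelihood test, library as a block, Benjamini-Hochberg adjustment over all genes tested, called at 0.05. A first fit held the 4 classes; a second split basal cells by S mark and G2/M genes and spinous cells by S mark. The fits were run on simulated data with the same mean profile in all classes, the same spread set for all genes and changes put into a single class. No result above rests on that run. Classes that differ in a large share of genes, as the layers do, were not simulated. Levels are UMIs per 1000000 UMIs of a library and class (CPM). Scrublet in scanpy 1.11.5 marked 30 doublets, which were left in; an alternative left them out. Library totals were 15926683, 24480473 and 28176712 UMIs.

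Profiles of 1 library come from the same cell suspension, which is why the library is a block. Deviations of same-library profiles correlated at 0.182 to 0.199 for S-marked and unmarked basal cells, 0.221 to 0.272 for spinous and unmarked basal cells, and 0.0990 to 0.147 for granular and spinous cells, over 10948 genes.

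Members named in the text are the highest by level, the largest and smallest changes per family, those called in the layer and G2/M comparisons up to 10 by size, and Hist1h1c, Hist1h2bc and Hist2h2be. Alternatives changed the scaling, tool (DESeq2 1.42.0), low-count filter, block, S mark, cell filters and libraries. Intervals are exact with 95% confidence and cover counting error only, and the limit for a count of 0 is 3 counts.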

Additional observations from a re-analysis of the deposited data

Results flagged for a closer look

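Member UMIs were found in barcodes that no comparison used. Kept cells that fell in no class held 75, 1380 and 240 member UMIs in replicates 1, 2 and 3, or 409, 1883 and 413 CPM. In replicate 2, 1115 of these UMIs came from 6 S-marked cells, at 16818 CPM, in which 4 Langerhans markers summed to 8175 CPM. Barcodes removed by the cell filter held 190, 183 and 255 member UMIs in replicates 1, 2 and 3, or 476, 448 and 378 CPM.

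The effect of the S mark differed between spinous and basal cells for Hist2h2aa1, by -1.12 on the log2 scale, in a test of the difference itself (edgeR, adjusted p 0.048). The call rested on S-marked spinous cells of 2 libraries and was lost under most alternatives.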

How the results depend on the processing

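In S-marked over unmarked basal cells 23 to 30 members were called higher under all alternatives and none lower. Over all genes 1397 to 2041 were called higher there, of 10656 to 17809 tested. In S-marked cells without over with G2/M genes, 15 to 20 members were called lower, beside 343 to 697 of all genes. The members tested also differed between alternatives, so these counts have no common base. Without the replicate block 25 members were called in S-marked over unmarked basal cells (26 with it) and 18 in the G2/M split (19), and the difference of the S-marked effect was called for 0 (1). In spinous over unmarked basal cells (7 higher, 0 lower), 4 were higher with total UMIs, 3 with DESeq2 and 3 with S-marked spinous and G2/M basal cells left out; 1 was lower in each of the fits without a filter, with total UMIs, with a mitochondrial limit of 5%, without doublets and with those cells left out. In granular over spinous cells (7 higher, 2 lower), 3 were higher and 9 lower with total UMIs, 4 lower without a filter and 1 lower with the limit of 5%. For the difference of the S-marked effect (0 higher, 1 lower), 1 was higher without a filter and with the limit of 5%, and 0 lower with total UMIs, DESeq2, either other S mark and the limit of 5%. Leaving out each replicate gave 4 to 9 higher and 0 to 1 lower in spinous over unmarked basal cells, 4 to 7 higher and 1 lower in granular over spinous cells, 2 to 12 higher and 0 to 1 lower in S-marked over unmarked spinous cells, and 0 to 2 higher and 0 to 3 lower for the difference. Log2 values that changed sign with total UMIs were those of Hist1h1e (-0.043) and Hist2h2be (-0.017) in spinous over unmarked basal cells, of Hist1h1e (-0.41), Hist1h2ap (-0.082) and Hist2h2aa1 (-0.32) in granular over spinous cells, and of Hist1h2bc (0.043) and Hist2h2aa1 (0.076) in S-marked over unmarked spinous cells, where Hist1h1c stood at -0.062 with the mark as a share of UMIs. Leaving out each replicate, the log2 range crossed 0 for Hist2h2be in spinous over unmarked basal cells (-0.059 to 0.54) and, in S-marked over unmarked spinous cells, for Hist1h1a (-4.36 to 5.24), Hist1h1c (-0.061 to 0.18), Hist1h3f (-3.12 to 6.16) and Hist2h2aa1 (-1.27 to 0.40); there 1 library was left in the S-marked spinous cells without replicate 2 or 3, and the lower ends for Hist1h1a and Hist1h3f come from 0 UMIs in that library and are no measure of a fold. The summed level was 9782 CPM in S-marked basal cells with a mark of 3 or more UMIs; without Hist1h2ap it was 2004, 204, 297 and 369 in S-marked basal, unmarked basal, spinous and granular cells. Thinned to 4000 UMIs, the shares with a member UMI were 84.5%, 55.7%, 64.5% and 79.4% in the same order. Leaving out Hist1h2ap, and leaving out S-marked spinous and G2/M basal cells, were chosen after seeing the data. Where no value above shows the cause of a change, the cause was not tested. Members with under 10 UMIs cannot be compared at this depth.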
